A study of Homo sapiens with 2 samples.

Results

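The vascular endothelial growth factor (VEGF) family was followed through every cell lineage of blood-generating heart-forming organoids (BG-HFOs), as the 10 genes that encode its ligands (*VEGFA*, *VEGFB*, *VEGFC*, *VEGFD* and *PGF*), its receptor tyrosine kinases (*FLT1*, *KDR* and *FLT4*) and its co-receptors (*NRP1* and *NRP2*). The genes were matched by symbol, and each was found once among the 36601 genes of both single-cell libraries. The organoids, 32.7 and 33.10, were grown from the hES3 NKX2.5-eGFP line, a human embryonic stem cell line with a green fluorescent reporter at the cardiac gene *NKX2-5*, and were dissociated on day 14, each giving 1 droplet-based 3′ library. Both belong to the same untreated condition, so all comparisons are between cell classes and the organoid is the replicate (n = 2). Recombinant VEGF and bFGF were added from early in differentiation, according to the study's methods, which describe the later medium by reference to the cytokines of the medium before it, so all cells share this exposure. The organoids come from 1 cell line, and nothing was measured here in embryonic tissue.

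In this family, VEGFA signals mainly through KDR (VEGFR2), the kinase that drives endothelial growth and migration. FLT1 (VEGFR1) binds VEGFA tightly but signals weakly, is also made as a soluble decoy, and is the receptor for VEGFB and placental growth factor (PGF). VEGFC and VEGFD bind FLT4 (VEGFR3) and, once processed by proteases, KDR. The neuropilins NRP1 and NRP2 hold ligand for the kinases and also bind semaphorins. In the early heart, muscle and epicardium are known as sources of VEGFA for the vessels that grow into them, arteries and veins differ in their neuropilins, and KDR marks the mesoderm from which endothelium and blood arise.

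The 250 bases before the start sites of 3 of the genes are printed, as a ligand (*VEGFC*) and the main kinases (*FLT1* and *KDR*) that had their highest level in endothelial cells (ECs). They are RefSeq sequences of GRCh38.p14, 5′ to 3′ on the gene's own strand, with capitals marking GGAA on either strand (GGAA or TTCC), the core that ETS transcription factors bind. The windows are chr13:28495129-28495378 for *FLT1*, chr4:55125596-55125845 for *KDR* and chr4:176792923-176793172 for *VEGFC*, all on the minus strand.
FLT1: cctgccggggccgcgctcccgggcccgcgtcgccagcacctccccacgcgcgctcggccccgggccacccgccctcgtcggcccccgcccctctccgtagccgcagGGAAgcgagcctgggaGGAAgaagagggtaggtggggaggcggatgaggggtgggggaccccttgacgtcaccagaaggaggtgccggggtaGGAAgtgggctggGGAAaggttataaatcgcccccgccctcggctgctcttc
KDR: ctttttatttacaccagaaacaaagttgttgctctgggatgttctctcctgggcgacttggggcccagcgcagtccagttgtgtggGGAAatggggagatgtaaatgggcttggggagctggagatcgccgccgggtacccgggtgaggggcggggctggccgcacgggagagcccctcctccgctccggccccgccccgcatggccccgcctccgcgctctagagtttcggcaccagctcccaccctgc
VEGFC: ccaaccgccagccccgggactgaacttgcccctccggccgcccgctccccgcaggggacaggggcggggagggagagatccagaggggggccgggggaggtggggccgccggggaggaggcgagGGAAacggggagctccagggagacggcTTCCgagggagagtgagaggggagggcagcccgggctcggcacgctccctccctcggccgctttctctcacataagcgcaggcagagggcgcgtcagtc
GGAA occurred 4 times before *FLT1*, 1 time before *KDR* and 2 times before *VEGFC*, and 92.7% of the 35116 promoter windows of this length in the table hold at least 1. The longer GGAAG (or CTTCC), held by 65.1% of all windows, occurred 3 times before *FLT1* and 1 time before *VEGFC* but not in the *KDR* window. *NRP2*, also highest in ECs, had 1 GGAA and 0 GGAAG in its window. ACGTG, the core of the hypoxia response element, was in none of these 3 windows, against 18.5% of all windows on either strand. These are matches of letters only. The GC content was 73.2%, 65.2% and 74.0% in the same order. Windows of *VEGFB*, *PGF* and *VEGFD* are not printed, and those of *VEGFA*, *FLT4* and *NRP1* were not analysed here.

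On GRCh38 with the GENCODE v44 annotation, *VEGFA* (ENSG00000112715) spans chr6:43770184-43786487 on the plus strand and *VEGFB* (ENSG00000173511) chr11:64234584-64239264, plus strand. *VEGFC* (ENSG00000150630) lies at chr4:176683538-176792922 and *VEGFD* (ENSG00000165197) at chrX:15345596-15384413, both on the minus strand, as is *PGF* (ENSG00000119630) at chr14:74941834-74955626. The receptors *FLT1* (ENSG00000102755, chr13:28300346-28495145), *KDR* (ENSG00000128052, chr4:55078481-55125595) and *FLT4* (ENSG00000037280, chr5:180601506-180649624) are on the minus strand, *NRP1* (ENSG00000099250, chr10:33177492-33336262) too, and *NRP2* (ENSG00000118257, chr2:205681990-205798133) is on the plus strand. Counts were of whole genes with intronic reads included, so splice forms such as those of *VEGFA*, or soluble and membrane-bound *FLT1*, cannot be told apart. Annotated genes on the opposite strand overlap *VEGFA*, *VEGFC*, *KDR*, *NRP1* and *NRP2*, and whether the counting used strand is not given in the sources used here.

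Of 16866 and 19948 barcodes (191152562 and 233818881 UMIs, unique molecular identifiers, each marking 1 captured molecule), 16792 and 19893 were kept, and 9745 and 11685 passed the gate of exactly 1 lineage. A gate required UMIs of at least 3 of up to 8 lineage genes, none of them a VEGF family member, with at least 5 UMIs in sum and 200 CPM (counts per 1e6 UMIs, here of the cell). The gates found 3001 and 3224 ECs, 2256 and 2122 cardiomyocytes (CMs), 608 and 735 epicardial/septum transversum cells, 1628 and 1455 mesenchymal cells (MES), 692 and 1798 erythroid cells, 682 and 1987 megakaryocytes, 520 and 252 monocytes/macrophages, 226 and 38 neutrophil-lineage cells, 53 and 56 eosinophil/mast cells, and 79 and 18 posterior foregut endoderm cells. The last fell under 20 cells in organoid 33.10 and is described without a test. *CDH5*, a junction protein of endothelium and 1 of the EC gate genes, stood at 316 and 270 CPM of the class sum in ECs and between 0 and 14.1 CPM in each other lineage. Epicardial/septum transversum cells also carried the MES gate genes (1131 and 870 CPM in sum, against 1665 and 1206 in MES). Cells passing several gates (3312 and 4216) or none (3735 and 3992) were left out of the comparisons. The libraries shared 100 barcodes.

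*VEGFA*, the main angiogenic ligand, was high in the cardiac and stromal lineages and lowest in ECs, the cells that carry its receptors. In CPM it stood at 130 in organoid 32.7 and 138 in organoid 33.10 in epicardial/septum transversum cells, 116 and 105 in CMs, 78.7 and 84.5 in MES and 54.1 and 60.8 in megakaryocytes. In ECs it was at 13.6 and 14.8. The other blood lineages lay between 16.6 and 31.2 CPM. Both EC values lay below all others. Each lineage was tested against the mean of the other lineages in 1 fit over 9 lineages by the quasi-likelihood test of edgeR, and p-values were adjusted by Benjamini-Hochberg. There *VEGFA* was higher in epicardial/septum transversum cells (log2 fold change 1.65 ± 0.098 SE, adjusted p = 9.00e-10), CMs (1.44 ± 0.099, adjusted p = 3.52e-09), MES (0.95 ± 0.10, adjusted p = 1.02e-06) and megakaryocytes (0.77 ± 0.11, adjusted p = 1.94e-05). It was lower in ECs (-1.90 ± 0.13, adjusted p = 3.06e-09) and monocytes/macrophages (-1.30 ± 0.14, adjusted p = 1.19e-06). For shares of cells, each cell with at least 3000 UMIs was thinned to 3000, and shallower cells were left out, here and below. Of the CMs kept, 28.1% in organoid 32.7 (exact 95% binomial interval 25.9 to 30.4, counting error only) and 27.5% in organoid 33.10 (25.4 to 29.6) held a *VEGFA* UMI. In the ECs kept (2793 and 3021 cells) the shares were 4.26% (3.54 to 5.08) and 4.37% (3.67 to 5.16). Unthinned shares, which include the shallower cells, were 43.1% and 49.7% in CMs (median depths 4838.5 and 7423.5 UMIs) and 13.0% and 12.5% in ECs (10352 and 8493 UMIs).

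*VEGFB*, a ligand of FLT1, had its highest level in CMs, with 119 and 102 CPM, clear of MES (68.5 and 57.0) and epicardial/septum transversum cells (67.9 and 53.7). ECs held 25.2 and 21.7 CPM. The test called *VEGFB* higher in CMs (log2 fold change 1.54 ± 0.15), MES (0.62 ± 0.16) and epicardial/septum transversum cells (0.46 ± 0.17) and lower in ECs (-0.98 ± 0.19, edgeR adjusted p = 0.000304). The call in epicardial/septum transversum cells held in 7 of 11 alternatives with a test (highest adjusted p = 0.277). Fitted with the organoid as a block, it was also lower in erythroid cells (adjusted p = 0.0217), megakaryocytes (0.0113), neutrophil-lineage (0.0319) and eosinophil/mast cells (0.0213), where the unblocked edgeR adjusted p-values were 0.177, 0.162, 0.302 and 0.0798. *VEGFA* and *VEGFB* thus shared CMs and stroma as their high lineages, in different orders, and ECs were low for both.

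Among the tested lineages *PGF* was highest in stroma, with 27.6 and 18.0 CPM in MES and 20.7 and 15.3 CPM in epicardial/septum transversum cells, which overlapped. ECs followed with 12.3 and 9.86 CPM, then CMs with 9.77 and 8.84. In the blood lineages it ranged from 0 to 5.43 CPM. The test called *PGF* higher in MES (2.38 ± 0.21), epicardial/septum transversum cells (1.88 ± 0.23), ECs (1.20 ± 0.23) and CMs (0.92 ± 0.25) than in the mean of the others. Without the neutrophil-lineage and eosinophil/mast cells, an alternative chosen after seeing the data, the value for ECs was 0.63 ± 0.20 (edgeR adjusted p = 0.0164) and that for CMs, 0.38 ± 0.21, was not called (adjusted p = 0.150).

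Of the ligands only *VEGFC*, which binds FLT4, was higher in ECs than in each other lineage in both organoids. It stood at 101 and 122 CPM in ECs, 12.6 and 16.2 in CMs, 6.43 and 6.73 in MES and 3.12 and 4.18 in epicardial/septum transversum cells. In megakaryocytes it was at 1.76 and 4.48 CPM, and it stayed under 1 CPM in erythroid cells and monocytes/macrophages. Within ECs, *VEGFC* was at 17.7 and 12.9 CPM in the venous cells gated below, which overlapped CMs. Eosinophil/mast cells had 0 UMIs in both organoids, which allows up to 3.77 and 3.01 CPM (3 counts per library), so a fold against the mean of all lineages depends on the prior count and is not given. In the fit without the neutrophil-lineage and eosinophil/mast cells, *VEGFC* was 5.07 ± 0.14 log2 units higher in ECs (edgeR adjusted p = 1.61e-11) and 1.68 ± 0.17 higher in CMs (adjusted p = 3.85e-06).

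*VEGFD*, the second FLT4 ligand, was close to the limit of detection. It had 47 and 32 UMIs in all ECs (1.27 and 0.934 CPM), and its levels in CMs, MES and epicardial/septum transversum cells lay between 0.858 and 1.24 CPM, overlapping those of ECs. Erythroid cells, megakaryocytes and monocytes/macrophages had 2 to 7 UMIs each, and neutrophil-lineage cells had 0 (up to 0.726 and 3.53 CPM). Without the neutrophil-lineage and eosinophil/mast cells the edgeR test gave a log2 fold change of 0.83 ± 0.26 for ECs (adjusted p = 0.0155).

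**Figure D1:**
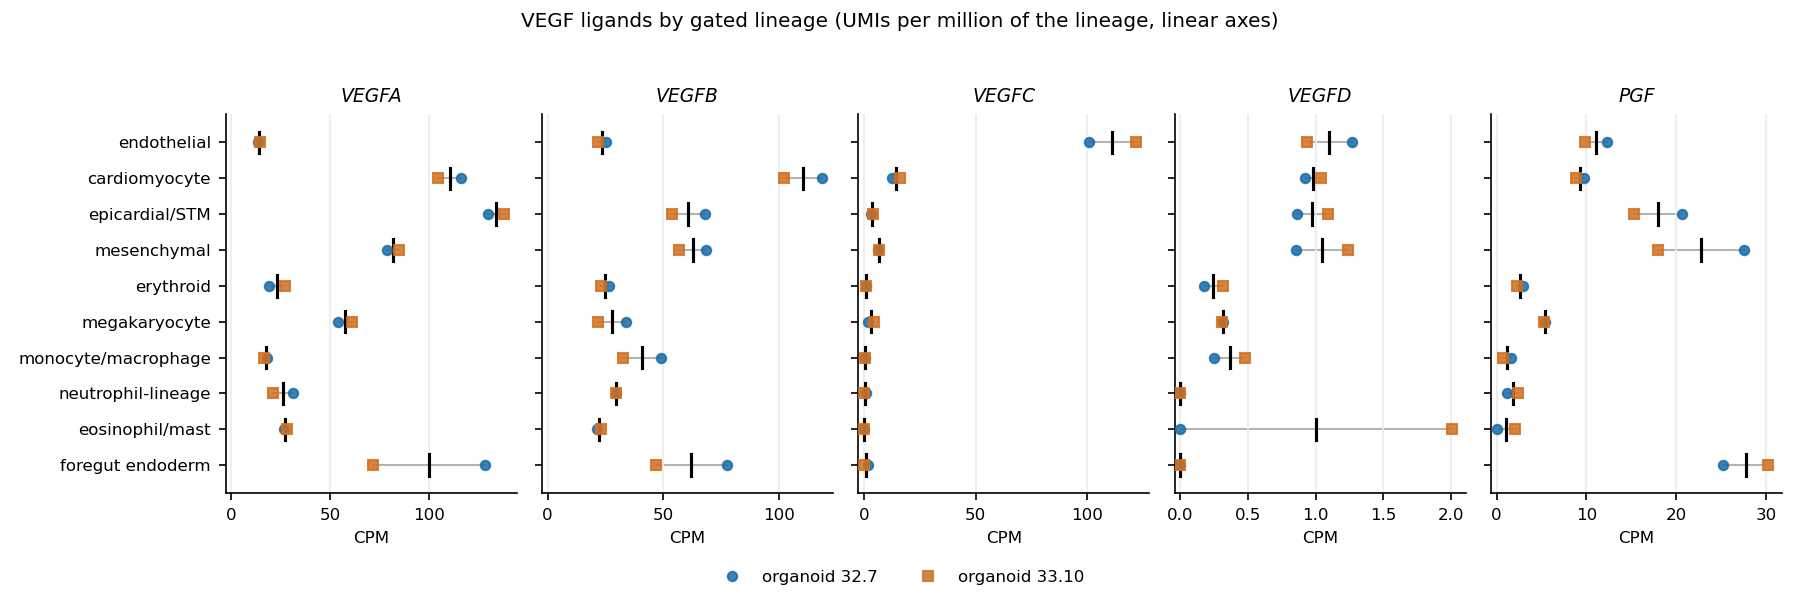
Level of the 5 VEGF ligands in the 10 gated lineages, as CPM on linear axes, with 1 point per organoid and a black tick at the mean of both. *VEGFA* lies above 100 CPM in CMs and epicardial/septum transversum (STM) cells and under 15 CPM in ECs, whereas *VEGFC* lies above 100 CPM in ECs alone, and the *VEGFD* axis ends near 2 CPM.

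The receptor tyrosine kinases had their highest level in ECs in both organoids. *KDR*, the main signalling receptor, stood at 947 and 954 CPM in ECs, 130 and 112 in MES, 90.1 and 97.2 in megakaryocytes, 78.9 and 68.7 in CMs and 75.1 and 57.4 in epicardial/septum transversum cells. It fell to 13.6 and 14.4 CPM in erythroid cells and to between 0 and 10.3 CPM in the other blood lineages. *FLT1* stood at 2089 and 2205 CPM in ECs and 214 and 221 in MES, followed by monocytes/macrophages (90.2 and 143), epicardial/septum transversum cells (105 and 117) and CMs (112 and 89.4), which overlapped. *FLT4*, the VEGFC receptor, stood at 64.0 and 59.1 CPM in ECs and between 0 and 6.29 CPM in each other lineage. The EC contrast gave log2 fold changes of 4.91 ± 0.14 for *FLT1* (edgeR adjusted p = 5.56e-14), 4.95 ± 0.15 for *KDR* (adjusted p = 1.12e-13) and 4.65 ± 0.14 for *FLT4* (adjusted p = 1.27e-13). *FLT4* was lower than the mean of the others in CMs (-1.01 ± 0.24), MES (-1.38 ± 0.25), epicardial/septum transversum cells (-2.31 ± 0.32) and megakaryocytes (-1.85 ± 0.33), and the last 3 calls held in 10 of 11 alternatives, ending when free RNA was subtracted (adjusted p = 1). The call in CMs held in 8 of 11, and ended with free RNA subtracted (adjusted p = 0.974), at 10 gate UMIs (0.07895) and without high-UMI cells (-0.01 log2 units, adjusted p = 0.995). Subtracting free RNA put *KDR* at 0 in 4 blood lineages, so that its log2 fold change in ECs, then 10.19, depends on the prior count.

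The neuropilins were more widespread. *NRP1* was highest in monocytes/macrophages, at 1082 and 1295 CPM, ahead of ECs (861 and 968), CMs (455 and 570), MES (356 and 399) and epicardial/septum transversum cells (178 and 260). It was low in megakaryocytes (21.1 and 28.2) and erythroid cells (11.7 and 18.2). The neighbours in this order did not overlap down to epicardial/septum transversum cells. The log2 fold change was 3.34 ± 0.11 for monocytes/macrophages (edgeR adjusted p = 5.65e-13), 2.68 ± 0.11 for ECs, 1.75 ± 0.12 for CMs and 1.25 ± 0.13 for MES, all called. In epicardial/septum transversum cells *NRP1* was not called (0.26 ± 0.14, adjusted p = 0.125), passed it when organoid was fitted as a block (adjusted p = 0.0304), and was called in 5 of 11 alternatives, whose values ran from -0.24 to 4.43. *NRP2* was highest in ECs, at 459 and 452 CPM, and stood at 157 and 129 in MES, 113 and 118 in CMs, 117 and 73.1 in epicardial/septum transversum cells, 39.6 and 46.2 in megakaryocytes and 25.4 and 33.5 in monocytes/macrophages. Its log2 fold change in ECs was 3.66 ± 0.13 (adjusted p = 1.10e-12). Monocytes/macrophages were thus high for 1 neuropilin and lower than the mean for the other (-0.57 ± 0.20, edgeR adjusted p = 0.0323). This call held in 6 of 11 alternatives and turned in sign when free RNA was subtracted (2.00, adjusted p = 0.153). *NRP2* was then at 0 in erythroid, neutrophil-lineage and eosinophil/mast cells, so that value depends on the prior count.

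**Figure D2:**
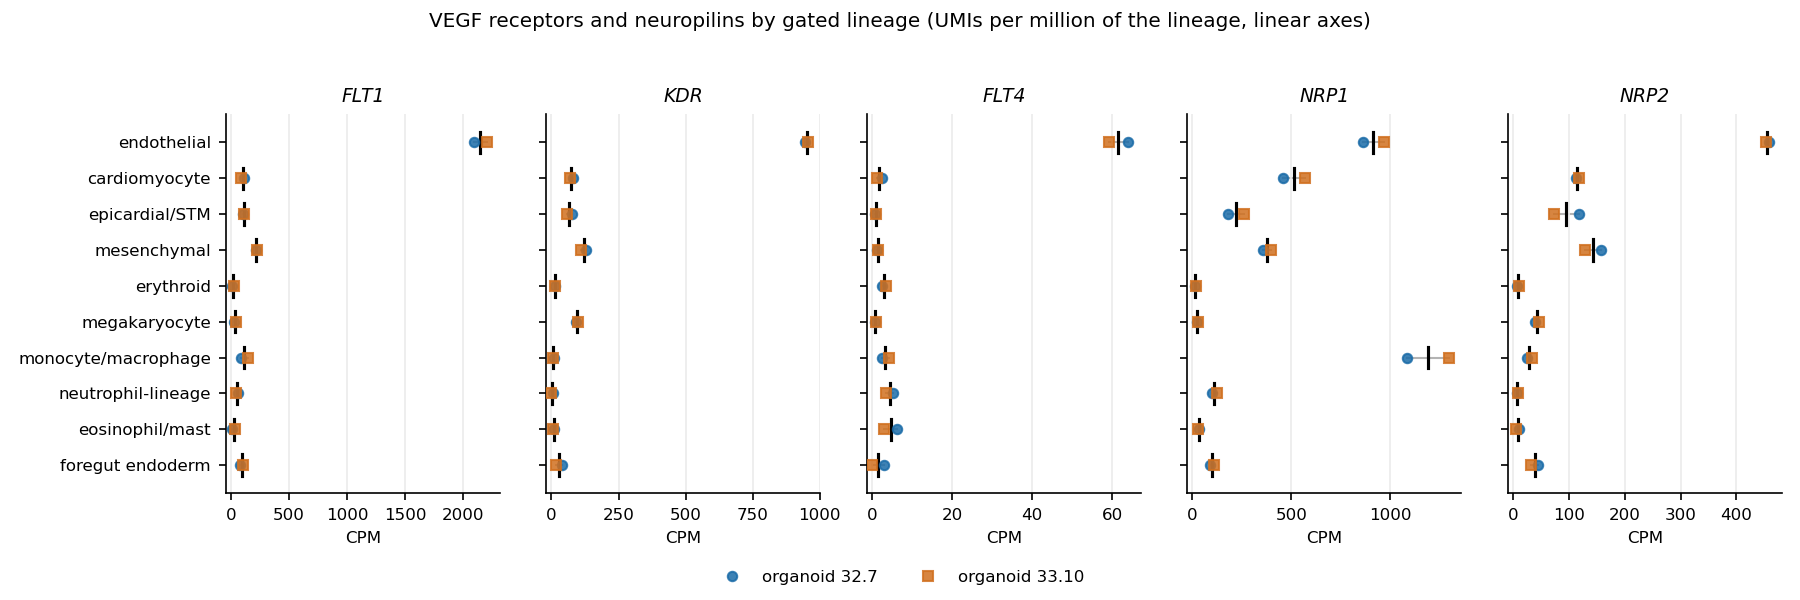
Level of the 3 receptor kinases and 2 neuropilins in the 10 gated lineages, as CPM on linear axes, with 1 point per organoid and a black tick at the mean of both. *FLT1*, *KDR*, *FLT4* and *NRP2* are highest in ECs, and *NRP1* is highest in monocytes/macrophages, at 1082 and 1295 CPM.

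Across all genes, 51.1% of the 20818 tested were called in either direction in the EC contrast, 29.0% as higher and 22.0% as lower. Of the 10 VEGF genes all 10 were called there, 8 as higher and 2 (*VEGFA* and *VEGFB*) as lower. In MES all 10 were called (9 higher, *FLT4* lower) against 51.1% of all genes, and in CMs 9 were (8 higher, *FLT4* lower, *FLT1* not called) against 58.2%. The fit without the neutrophil-lineage and eosinophil/mast cells did not call *KDR* (0.05 ± 0.16, edgeR adjusted p = 0.841), *PGF* (0.150) or *VEGFD* (0.0660) in CMs. It called *FLT1* lower there (-0.44 ± 0.17, adjusted p = 0.0447), and in MES it did not call *VEGFC* (0.171). In epicardial/septum transversum cells 6 were called (5 higher) against 54.2% of all genes (32.5% higher). The blood lineages had 5 called genes in erythroid cells (background 48.3%), 5 in megakaryocytes (47.9%), 5 in monocytes/macrophages (40.3%), 7 in neutrophil-lineage cells (34.6%) and 6 in eosinophil/mast cells (22.7%). In erythroid, neutrophil-lineage and eosinophil/mast cells all called members were lower. For these lineages, MES and CMs the background was taken in either direction only, so the directions of their calls have no background here. With about as many calls as the background, the erythroid, megakaryocyte, monocyte/macrophage and epicardial counts say little of the family as a whole. The counts include *VEGFC* and *VEGFD*, which each had 0 UMIs in 1 lineage in both organoids.

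Some FLT1 and KDR transcript lay outside the endothelium, and its level was set beside that of endothelial genes in the same cells. *CDH5* is an EC gate gene, and cells that also passed the EC gate were left out. The gating itself thus lowers *CDH5* in the other classes, and it is no measure of free RNA or doublets there. *CD93* is in no gate. *KDR* in MES was 13.7% and 11.7% of its EC level and *FLT1* 10.2% and 10.0%, whereas *CDH5* was at 0.572% and 0.796% and *CD93*, a surface protein of ECs and myeloid cells, at 0.633% and 0.849%. In megakaryocytes *KDR* reached 9.51% and 10.2% of the EC level and *FLT1* 1.44% and 1.85%, beside 1.01% and 0.830% for *CDH5*. *CD93* was at 2.00% and 1.61% there, so *FLT1* did not stand clear of it. *EMCN*, a further endothelial gene, stood at 93.6% and 63.5% of its EC level in megakaryocytes and thus does not separate these classes. In CMs *KDR* was at 8.33% and 7.19% beside 2.45% and 1.67% for *CDH5* and 2.70% and 1.68% for *CD93*. In erythroid cells *KDR* (1.43% and 1.51%) and *FLT1* (0.654% and 1.07%) were low but above *CDH5* (0.434% and 0.589%) and *CD93* (0.465% and 0.698%).

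**Figure D3:**
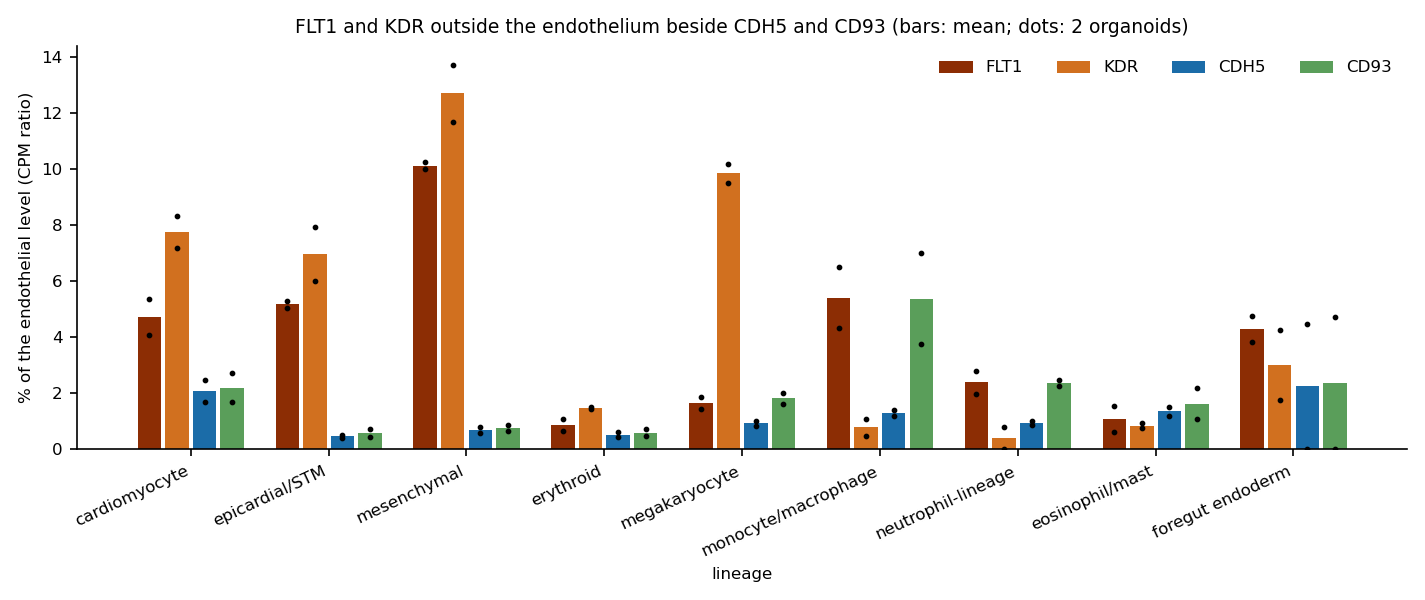
Level of *FLT1*, *KDR*, *CDH5* and *CD93* in the 9 lineages other than ECs, as a percentage of the EC level in the same organoid, with bars for the mean of 2 organoids and dots for each. *KDR* reaches 13.7% and 11.7% in MES and 9.51% and 10.2% in megakaryocytes, where *CDH5* is at 0.572% and 0.796% and at 1.01% and 0.830%. *CDH5* is an EC gate gene, so the gating lowers it in these lineages.

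Among the classes listed here, with cells thinned to 3000 UMIs, ECs most often held a *KDR* UMI and erythroid cells least often. The exact 95% intervals of MES and megakaryocytes overlapped in each organoid. A *KDR* UMI was found in 87.8% (exact 95% interval 86.5 to 89.0) and 88.0% (86.7 to 89.1) of ECs, 23.6% (21.5 to 25.7) and 19.2% (17.2 to 21.4) of MES and 20.5% (17.1 to 24.2) and 18.9% (17.1 to 20.9) of megakaryocytes. In erythroid cells the share was 4.92% (3.37 to 6.91) and 5.15% (4.14 to 6.32), and the part of free RNA in it was not tested. Unthinned, megakaryocytes had 26.5% and 29.7% (median depths 6970 and 6401 UMIs) and erythroid cells 10.8% and 9.23% (13166 and 9408.5 UMIs). When 10% of each class's UMIs were subtracted as the profile of all barcodes, *KDR* kept 111 and 95.3 CPM in MES and 66.8 and 79.6 CPM in megakaryocytes. *KDR*, *FLT1* and *NRP1* went to 0 in erythroid cells. *CDH5* went to 0 in MES, CMs and megakaryocytes, but the gating had already lowered it there, so it is no yardstick for *KDR*. The level of *CD93* after the subtraction was not computed. *FLT1* kept 31.5 and 99.6 CPM in monocytes/macrophages and went to 0 in megakaryocytes. The test called *KDR* higher than the lineage mean in MES (1.61 ± 0.18, edgeR adjusted p = 1.45e-06) and megakaryocytes (1.58 ± 0.18, adjusted p = 2.44e-06), and both calls held under all 11 alternatives with a test. Without the neutrophil-lineage and eosinophil/mast cells the values were 0.86 and 0.77, and with free RNA subtracted 6.52 and 6.32. The values after subtraction depend on the prior count, as *KDR* was then at 0 in erythroid, monocyte/macrophage, neutrophil-lineage and eosinophil/mast cells. In epicardial/septum transversum cells *KDR* (0.53 ± 0.20, edgeR adjusted p = 0.0323) was called in 8 of 11 alternatives, but not always with the same sign. It turned to -0.88 (adjusted p = 9.045e-05) when the gate was raised to 500 CPM.

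*FLT1* and *KDR* were found together in most ECs. With cells thinned to 3000 UMIs, 82.3% of the 2793 ECs kept in organoid 32.7 (exact 95% interval 80.8 to 83.7) and 83.9% of the 3021 kept in organoid 33.10 (82.5 to 85.2) held UMIs of both. A further 10.8% and 11.0% held *FLT1* alone, 5.48% and 4.07% held *KDR* alone, and 1.36% and 1.03% held neither. *NRP1* was present as well in 69.6% and 73.2% of ECs.

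The UMIs of each gene were also traced to the cells that held them, a quantity that depends on both the level and the number of cells. ECs held 65.5% and 61.1% of all *FLT1* UMIs, 61.6% and 54.9% of *KDR*, 67.6% and 60.6% of *FLT4*, and 63.9% and 59.3% of *VEGFC*. ECs held 4.46% and 3.47% of the *VEGFA* UMIs, CMs 17.9% and 14.5%, MES 14.7% and 10.3% and epicardial/septum transversum cells 10.7% and 10.4%. Cells passing several gates held 34.9% and 38.5% of the *VEGFA* UMIs and 24.2% and 27.6% of the *FLT1* UMIs, and their UMIs were assigned to no lineage. They include droplets with more than 1 cell. They could also include types that the paper describes by genes of several lineages, such as its endocardial-like cells, which was not tested. Free RNA is included in every share. *NRP1* was divided between ECs (37.1% and 34.0%), CMs (9.25% and 11.7%), MES (8.73% and 7.23%) and monocytes/macrophages (10.1% and 5.51%).

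**Figure D4:**
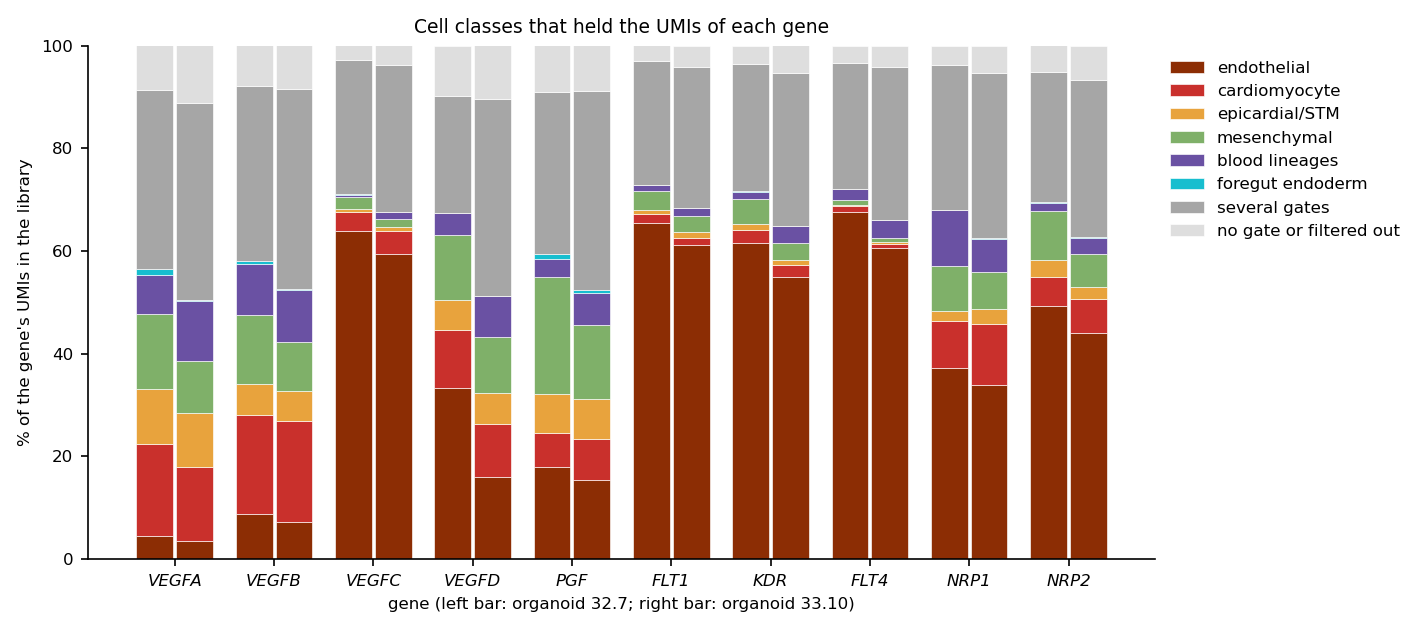
Share of the UMIs of each VEGF family gene held by each cell class, in percent of the gene's UMIs in the library, with the left bar for organoid 32.7 and the right bar for organoid 33.10. ECs hold more than 54% of *FLT1*, *KDR*, *FLT4* and *VEGFC* and under 5% of *VEGFA*, and cells passing several gates hold 22.7% to 38.9% of each gene.

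Within the endothelium, ligands and receptors were split between arterial (AE) and venous (VE) cells. AE were gated on *CXCR4*, *DLL4*, *SOX17* and *GJA5* (1745 and 1728 cells) and VE on *NR2F2* (458 and 456 cells), and the rest were called intermediate (798 and 1040 cells). *VEGFC* was at 131 and 163 CPM in AE, 60.5 and 78.3 in intermediate cells and 17.7 and 12.9 in VE. *PGF* followed the same order with 16.1 and 12.2, 6.69 and 7.41, and 2.60 and 3.93 CPM. *VEGFA* ran the other way, at 8.81 and 9.89 CPM in AE, 18.7 and 19.9 in intermediate cells and 28.3 and 27.5 in VE. *VEGFB* did so too, at 20.2 and 16.5, 31.0 and 27.2, and 40.2 and 35.5 CPM. For all 4 ligands the 3 classes did not overlap between organoids. AE exceeded VE in *VEGFC* by 3.35 ± 0.23 log2 units (edgeR adjusted p = 2.42e-08) and in *PGF* by 2.23 ± 0.34 (adjusted p = 0.000113). They were below VE in *VEGFA* (-1.48 ± 0.16, adjusted p = 2.00e-06) and *VEGFB* (-0.94 ± 0.24, adjusted p = 0.00829). With free RNA subtracted *VEGFA* was at 3.24 and 4.04 CPM in AE and 24.9 and 23.6 in VE, a difference of -2.67 log2 units. *VEGFD* had 29 and 17 UMIs in AE and 13 and 7 in VE and was not called (adjusted p = 0.307).

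The receptors split as well. *FLT1* was at 2555 and 2714 CPM in AE, 1429 and 1560 in intermediate cells and 824 and 1030 in VE, a log2 difference of 1.61 ± 0.24 (edgeR adjusted p = 9.25e-05). *NRP1* was at 997 and 1127 CPM in AE and 550 and 636 in VE (0.94 ± 0.18, adjusted p = 0.000994), and *NRP2* at 303 and 272 in AE and 1052 and 1069 in VE (-1.78 ± 0.20, adjusted p = 5.35e-06). The neuropilins thus differed between AE and VE in opposite directions. *KDR*, at 909 and 932 CPM in AE and 1259 and 1241 in VE, was lowest in the intermediate cells (779 and 811), and although AE and VE did not overlap, the difference was not called (-0.34 ± 0.23, adjusted p = 0.348, and 0.0882 with the organoid as a block). *FLT4* was at 65.8 and 60.0 CPM in AE, 67.6 and 66.6 in VE and 52.1 and 50.9 in intermediate cells, with an AE to VE difference of 0.01 ± 0.18 log2 units (adjusted p = 0.989). The median AE cell held 12866 and 10771 UMIs, the median VE cell 11732 and 10113.5 and the median intermediate cell 5483.5 and 5328.5, and the part of depth in the levels of intermediate cells was not tested.

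**Figure D5:**
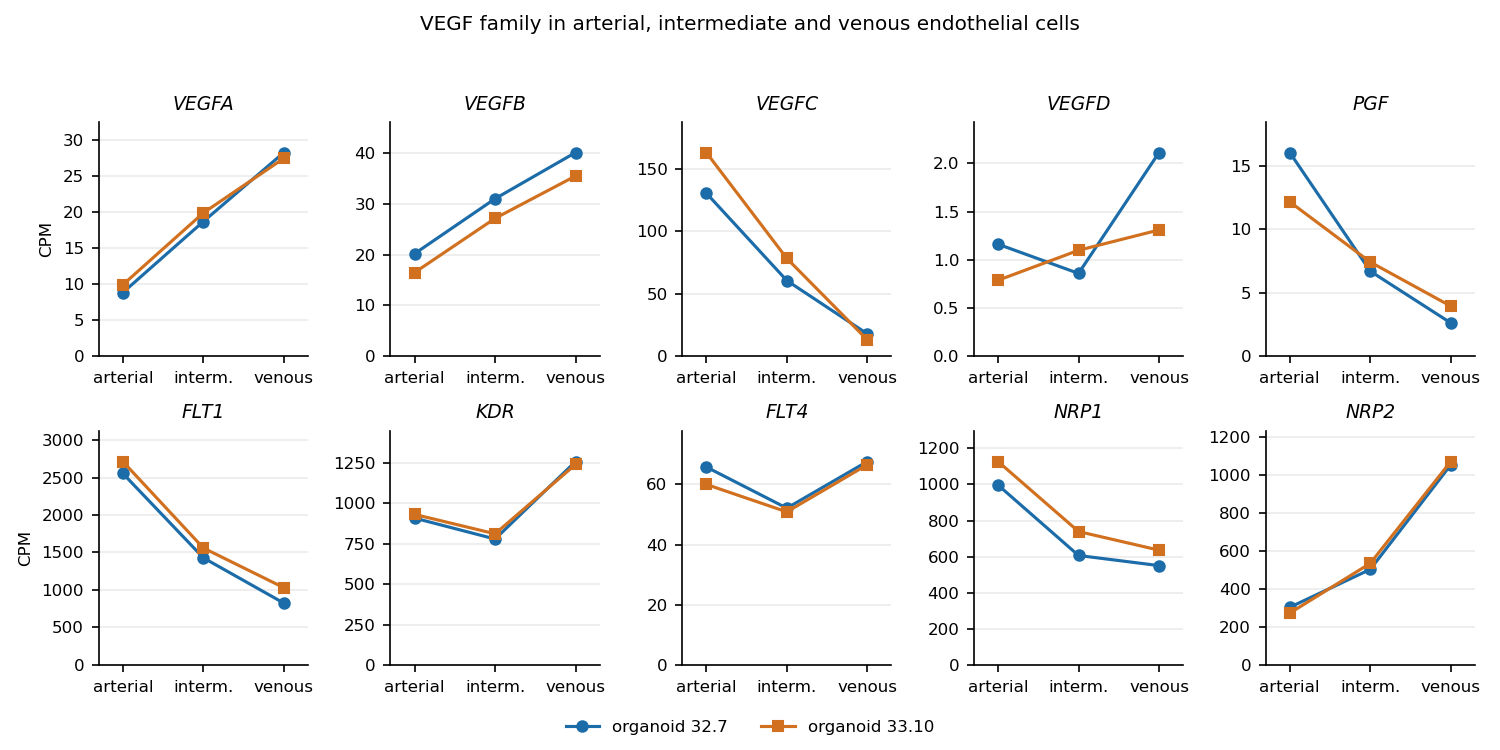
Level of the 10 VEGF family genes in arterial, intermediate and venous ECs, as CPM from 0, with 1 line per organoid. *VEGFC*, *PGF*, *FLT1* and *NRP1* fall from arterial to venous cells and *VEGFA*, *VEGFB* and *NRP2* rise, in both organoids, whereas *KDR* and *FLT4* are lowest in intermediate cells.

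Between AE and VE, 7 of the 10 genes were called, 4 as higher and 3 as lower in AE. Over all 20108 genes tested 18.7% were called, 9.40% as higher and 9.32% as lower. Each of these 7 calls kept its direction in either organoid alone, for example 3.06 and 3.75 log2 units for *VEGFC* and -1.62 and -1.88 for *NRP2*. All 7 held under each of the 12 alternatives with a test. Under the strictest gate (AE with 0 *NR2F2* UMIs, VE with 0 UMIs of the 4 arterial genes) the *VEGFC* difference was 6.15 log2 units. In thinned cells, a *VEGFC* UMI was found in 25.5% (exact 95% interval 23.4 to 27.6) and 30.6% (28.4 to 32.8) of AE and 3.37% (1.90 to 5.50) and 1.79% (0.774 to 3.49) of VE, with 0.317% and 0.239% in erythroid cells (unthinned 50.6% and 54.6%, 7.86% and 5.92%, and 1.16% and 1.06%). *NRP2* was found in 51.5% and 45.9% of AE and 86.1% and 89.7% of VE (unthinned 81.6% and 75.6%, and 97.8% and 97.6%). *FLT1* and *KDR* were found together in 88.0% (86.3 to 89.5) and 88.6% (87.0 to 90.1) of AE and in 72.6% (68.2 to 76.7) and 80.1% (76.1 to 83.7) of VE, and *KDR* without *FLT1* in 1.17% and 0.940% of AE and 18.4% and 11.4% of VE.

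ECs with the haemogenic transcription factor *RUNX1* were few, 36 and 52 cells with at least 2 *RUNX1* UMIs, against 2788 and 2993 with 0. The 3 kinases and both neuropilins were lower in the *RUNX1*-positive cells of each organoid. *FLT4* was at 35.3 and 37.1 CPM against 64.2 and 59.8, *KDR* at 663 and 683 against 953 and 960, *FLT1* at 1386 and 1724 against 2094 and 2212, *NRP1* at 728 and 736 against 862 and 972, and *NRP2* at 400 and 218 against 469 and 461. The 177 and 179 ECs with 1 *RUNX1* UMI entered neither class. In them *FLT4* was at 69.8 and 59.4 CPM, *FLT1* at 2237 and 2308, *KDR* at 954 and 990 and *NRP1* at 891 and 1016, at or above the *RUNX1*-zero cells but for *FLT4* in organoid 33.10, and *NRP2* was below them at 345 and 430. *FLT4* was the 1 member called (-0.93 ± 0.25 log2 units, edgeR adjusted p = 0.0421), where 3.46% of all 20434 genes were (387 higher and 320 lower, against 434 and 122 with RLE scaling). With the organoid as a block, *KDR* (adjusted p = 0.0155), *NRP1* (0.0323) and *NRP2* (0.0435) were called beside *FLT4* (0.0298), and *FLT1* was not (0.0758). Over the alternatives with a test the adjusted p of *FLT4* ranged from 0.00210 to 0.680, the latter without high-UMI cells, where 11 genes were called in all. The *RUNX1*-positive cells were deeper (median 18747.5 and 14370 UMIs against 10031 and 8276) and held more of the blood genes *PTPRC* (99.6 and 21.6 CPM against 1.25 and 0.389) and *SPN* (39.1 and 23.7 against 0.657 and 0.779), with *CDH5* at 242 and 192 against 319 and 271 CPM. The part of these differences in the receptor levels was not tested. The ligands overlapped between the 2 classes, and *PGF* (17.7 and 2.06 CPM in the *RUNX1*-positive cells) rested on 14 and 2 UMIs.

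Genes that process, transmit or answer VEGF signals were taken from 4 lists, chosen with earlier results of these data known. Of 12 genes known to be induced by VEGF in endothelium, 9 were called higher and 1 lower in ECs than in the mean of the other lineages, with a median log2 fold change of 3.45 against 0.06 over all genes. Of all genes 29.0% were called higher and 22.0% lower in this contrast. Because the list was drawn from genes described in endothelium, its counts in ECs do not measure a response to VEGF, which was not tested. The largest changes were in *ESM1*, an endothelial proteoglycan (1689 and 1789 CPM in ECs, 6.98 ± 0.20), *APLN*, the ligand apelin (30.3 and 25.4 CPM, 5.31 ± 0.21), and *HLX*, a homeobox factor (104 and 93.4 CPM, 4.48 ± 0.17). Between AE and VE 6 of the 12 were called higher and 1 lower (median 1.44, against 0.03 over all genes, of which 9.40% were called higher and 9.32% lower). AE and VE were themselves split by gates on arterial and venous genes, so these counts do not measure a response to VEGF either. *ESM1* stood at 2312 and 2527 CPM in AE and 40.0 and 38.9 in VE (6.03 ± 0.42), *ANGPT2*, the TIE2 ligand angiopoietin 2, at 381 and 396 against 32.8 and 33.8 (3.64 ± 0.23) and *HLX* at 132 and 121 against 15.6 and 16.3 (3.09 ± 0.26). In epicardial/septum transversum cells 2 were higher and 3 lower (background 32.5% and 21.7%), among them *HHEX* (-3.18 ± 0.21), *APLN* (2.72 ± 0.33) and *ESM1* (-1.91 ± 0.37).

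Of 12 receptor partners and signalling genes, 10 were called higher and 2 lower in ECs (median 1.64, background 29.0% and 22.0%). They were led by *PTPRB*, the endothelial phosphatase VE-PTP (225 and 218 CPM in ECs, 5.65 ± 0.13), and *EFNB2*, the arterial ephrin that helps VEGF receptors internalize (487 and 458 CPM, 5.06 ± 0.22), with the phosphatase *PTPRJ* lower (4.98 and 4.73 CPM, -4.27 ± 0.25). Between AE and VE 3 were called (background 18.7%). *EFNB2* was higher in AE (628 and 615 CPM against 138 and 102, 2.47 ± 0.36), the adaptor *NCK1* was higher (95.2 and 108 against 75.6 and 70.9, 0.57 ± 0.11) and the endocytic adaptor *DAB2* lower (128 and 115 against 228 and 200, -0.72 ± 0.19). In epicardial/septum transversum cells 6 were higher and 3 lower (background 32.5% and 21.7%), with *PTPRB* at -2.53 ± 0.34, *EFNB2* at 1.31 ± 0.29 and *PTPRJ* at -1.24 ± 0.20.

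Of 8 genes that process VEGFC and VEGFD, 5 were called higher and 2 lower in epicardial/septum transversum cells (median 1.80, against 0.12 over all genes, of which 32.5% were called higher and 21.7% lower). *CCBE1*, the cofactor for VEGFC cleavage, stood at 117 and 117 CPM there (5.17 ± 0.17) and at 1.62 and 1.96 CPM in ECs. The procollagen protease *ADAMTS2* was at 17.2 and 23.8 CPM (3.31 ± 0.22) and the proprotein convertase *PCSK5* at 63.7 and 37.9 CPM (2.96 ± 0.29). In ECs 3 were called higher and 4 lower (background 29.0% and 22.0%), led by *ADAMTS14* (0.298 and 0.379 CPM, -3.26 ± 0.33), *PCSK5* (39.0 and 38.3 CPM, 2.61 ± 0.29) and *ADAMTS2* (0.622 and 0.876 CPM, -1.95 ± 0.50). Between AE and VE 2 were called (background 18.7%). *ADAMTS3*, the protease that cleaves VEGFC together with CCBE1, was lower in AE (13.7 and 20.7 against 59.3 and 70.9 CPM, -1.83 ± 0.31) and the convertase *FURIN* higher (70.5 and 61.3 against 37.6 and 30.9 CPM, 1.04 ± 0.16). The class with the most *VEGFC* thus had less *ADAMTS3* than VE.

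Of 16 genes of hypoxia and the HIF pathway, which is known to induce *VEGFA*, 8 were called higher and none lower in epicardial/septum transversum cells, where *VEGFA* was highest, with a median of 0.26 against 0.12 over all genes. Over all genes 32.5% were called higher and 21.7% lower there. In sum the 8 calls are close to the background of 54.2% in either direction, though all were higher. *CA9*, a carbonic anhydrase, was at 1.08 and 0.999 CPM (2.84 ± 0.63), a level as low as that of *VEGFD*. *HIF3A* was at 79.8 and 75.4 CPM (2.24 ± 0.11) and *EPAS1*, which encodes HIF-2α, at 33.5 and 37.2 CPM (1.39 ± 0.15). In ECs 8 were higher and 5 lower (background 29.0% and 22.0%), with *EPAS1* at 80.4 and 90.4 CPM (2.92 ± 0.13), the peptide hormone *ADM* at 22.4 and 20.2 CPM (2.00 ± 0.18) and the glucose transporter *SLC2A1* at 18.0 and 20.4 CPM (-1.72 ± 0.19). Between AE and VE 4 were higher and 6 lower among 15 tested (background 9.40% and 9.32%). *SLC2A1* (11.6 and 11.7 against 42.3 and 49.7 CPM, -1.88 ± 0.23) and the mitophagy gene *BNIP3* (161 and 167 against 460 and 560 CPM, -1.54 ± 0.15) were higher in VE, as *VEGFA* was, and *NDRG1* was higher in AE (58.6 and 52.8 against 17.6 and 16.6 CPM, 1.80 ± 0.25). All these fold changes passed the edgeR test, with adjusted p-values of at most 0.0127. ECs, the lineage lowest in *VEGFA*, also had 8 genes of this list called higher. The part of the HIF pathway in the levels of *VEGFA* was not tested.

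For a description of likeness, log2(CPM + 1) was correlated over 11 classes and both organoids (22 points, which share libraries and free RNA). Among the members, *KDR* and *NRP2* (Pearson's r = 0.921), *FLT1* and *VEGFC* (0.891) and *KDR* and *VEGFC* (0.886) were the most alike, and *VEGFA* and *FLT4* the most unlike (-0.673). *VEGFA* and *VEGFB* had r = 0.777. The genes most like *KDR* were *FAM155A* (0.980), *PTCHD4* and *KRBOX4*, those most like *FLT1* were *QPCT* (0.973), *ITGA5* and *KLHL5*, and those most like *FLT4* were *ADCY4* (0.962), *CDH5*, itself a gate gene, and *SNRK*. For *NRP1* they were *AP2A2* (0.960), *TIGAR* and *RIN2*, and for *NRP2* *C8orf58* (0.961), *BRINP1* and *CHSY3*. Among the ligands, *VEGFA* was most like *CHD9* (0.921), *TARSL2* and *GRID1*, *VEGFB* most like *SLC25A23* (0.932), *ALDOC* and *PPP1R3C*, and *VEGFC* most like *BTBD3* (0.970), *NPFFR2* and *ARHGEF28*. *PGF* was most like *SYT9* (0.935), *BMP4* and AC009041.2, and *VEGFD* most like *FAM102A* (0.879), *ZNF30* and *PHC1*, on counts near its floor.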

How the data were processed

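Single-cell transcriptomes of 2 BG-HFOs (organoids 32.7 and 33.10, day 14) were analysed from the deposited UMI count matrices. According to the labels and the study's methods, the authors made these counts from 10x 3′ libraries with Cell Ranger 7.0.0 on GRCh38, with intronic reads included, and the deposited matrices are unscaled whole numbers without removal of free RNA or doublets. Barcodes with 50 to 11000 genes and under 30% mitochondrial UMIs were kept. No doublet caller was run. Cells passing several lineage gates were left out, and an alternative left out cells with more than 2 times their class's median UMIs. UMIs were summed per class and organoid and tested with edgeR 4.0.16 (TMM, filterByExpr, quasi-likelihood test, Benjamini-Hochberg adjustment over all genes, called at adjusted p under 0.05) in R 4.3.3, with each of 9 lineages against the mean of the others, AE against VE, and *RUNX1*-positive against *RUNX1*-zero ECs. DESeq2 1.42.0 was an alternative. Errors of fold changes are SE, with n = 2 organoids per class. The organoids are separate samples of 1 cell line, so p-values measure the spread between these organoids. That spread was estimated over all classes of a fit, whose sums were treated as independent. Shares of cells were computed after thinning to 3000 UMIs, with cells under 3000 UMIs left out. Their exact binomial intervals cover counting error only. The test was also run on simulated counts with flat means for most genes and independent organoids. These differ from the real data, so that run is no check of the results given here.

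The classes of 1 organoid share their library, so the organoid pairs them. The main fit, which gave the p-values except where stated, left this pairing out, and the fit with the organoid as a block took it in. Over 36 pairs of lineages the deviations of 6031 genes from the class means correlated with a median r of 0.353 (0.00992 to 0.721), over 0.1 in 29 pairs. The family, the gates and the pathway lists were chosen with earlier results of these data known. The text names every member, and of each pathway list up to 3 called genes with the largest change.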

Additional observations from a re-analysis of the deposited data

Results flagged for a closer look

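Some levels of *VEGFA* and *PGF* are given for cells that entered no comparison of the report, and they lay above the limit that a count of 0 allows. For *VEGFA*, cells passing several gates had 64.9 CPM in organoid 32.7 and 63.9 CPM in organoid 33.10. In cells that passed no lineage gate *VEGFA* was at 69.2 CPM in organoid 32.7 and 91.9 CPM in organoid 33.10, where 3 counts are worth 0.225 and 0.188 CPM, and these cells had median depths of 1984 and 2827 UMIs. In posterior foregut endoderm *VEGFA* was at 128 and 71.6 CPM and *PGF* at 25.2 and 30.3 CPM, where 3 counts are worth 3.03 and 8.26 CPM. The class had 79 and 18 cells. The *PGF* levels did not overlap those of epicardial/septum transversum cells (20.7 and 15.3 CPM) and overlapped those of MES (27.6 and 18.0 CPM), and the difference was not tested.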

How the results depend on the processing

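Of 1189 tested refits of a member in a comparison, 1021 kept direction and side of the threshold, 53 gained and 65 lost a call with the same sign, and 50 changed sign, 11 of them called in 1 fit or both and 39 in neither. Of 220 values from a single organoid, 11 changed sign, 0 of them of a member called with both organoids. The number of called members moved by more than 1.5 times in 4 comparisons. In erythroid cells it went from 5 to 1 with free RNA subtracted and to 9 without neutrophil-lineage and eosinophil/mast cells. In neutrophil-lineage cells it went from 7 to 4 at 500 CPM, 3 with free RNA subtracted and 4 without high-UMI cells, and in eosinophil/mast cells from 6 to 3 at 10 gate UMIs and 0 with free RNA subtracted. In *RUNX1*-positive ECs it went from 1 to 0 with RLE scaling, DESeq2, 10 gate UMIs, free RNA subtracted or high-UMI cells left out, to 5 without the low-count filter or at 3 gate UMIs, to 2 at 500 CPM and to 4 with the organoid as a replicate block. Over all genes the *RUNX1* comparison called 707, against 1750 without the filter, 1185 with the block, 1071 with DESeq2, 1312 at 3 gate UMIs, 1248 at 500 CPM and 11 without high-UMI cells. Eosinophil/mast cells called 4725 genes, against 2778 without high-UMI cells. Monocytes/macrophages called 4974 higher and 3409 lower, against 4295 and 4859 with DESeq2. RLE scaling moved the median of all genes from 0.14 to 0.25 in CMs and from -0.15 to -0.04 in the *RUNX1* comparison.

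Log2 fold changes that reversed and were called in at least 1 fit were as follows. With free RNA subtracted, *FLT1* in CMs became 5.08, *NRP2* in monocytes/macrophages 2.00 and *NRP1* in neutrophil-lineage cells 3.05. Each of these genes was then at 0 in erythroid and eosinophil/mast cells, so the values depend on the prior count. The levels themselves fell, to 55.6 and 40.5 CPM for *FLT1* in CMs, 8.19 and 20.2 for *NRP2* in monocytes/macrophages and 58.0 and 90.7 for *NRP1* in neutrophil-lineage cells. In epicardial/septum transversum cells *KDR* became -0.11 at 10 gate UMIs, -0.88 at 500 CPM, -0.34 without high-UMI cells and -0.25 without neutrophil-lineage and eosinophil/mast cells, where *VEGFC* became -0.73. *FLT1* there became -1.07 at 500 CPM and -0.64 without high-UMI cells, and *NRP2* in megakaryocytes became -0.60 without neutrophil-lineage and eosinophil/mast cells. The cause of the reversals without subtraction of free RNA was not tested. Those called in neither fit were the following. With RLE scaling and with DESeq2, *FLT1* in CMs became 0.071 and 0.078, *FLT4* in monocytes/macrophages -0.028 and -0.013, *FLT4* between AE and VE -0.050 and -0.050, and *VEGFA* in *RUNX1*-positive ECs 0.082 and 0.082. *FLT1* in CMs became 0.037 without the low-count filter, and with the block *FLT1* in epicardial/septum transversum cells became -0.0042. At 3 gate UMIs *FLT4* in monocytes/macrophages became -0.023 and *VEGFD* in megakaryocytes 0.031. At 10 gate UMIs *VEGFC*, *NRP1* and *FLT1* in epicardial/septum transversum cells became -0.13, -0.0023 and -0.47, *VEGFC* in megakaryocytes -0.058, *FLT4* in monocytes/macrophages -0.31 and between AE and VE -0.039, and *VEGFA* in *RUNX1*-positive ECs 0.16. At 500 CPM *NRP1* in epicardial/septum transversum cells became -0.24, *NRP2* and *PGF* in megakaryocytes -0.11 and -0.024, *FLT4* in monocytes/macrophages -0.053 and between AE and VE -0.038, and *VEGFA*, *VEGFB* and *VEGFD* in *RUNX1*-positive ECs 0.59, 0.15 and 0.92. With free RNA subtracted *FLT4* between AE and VE became -0.024 and *VEGFA* in *RUNX1*-positive ECs 0.030. Without high-UMI cells *FLT1* in CMs became 0.38, *FLT4* in monocytes/macrophages -0.31, and *VEGFA* and *PGF* in *RUNX1*-positive ECs 0.43 and 0.16. Without neutrophil-lineage and eosinophil/mast cells *NRP1* and *FLT1* in epicardial/septum transversum cells became -0.16 and -0.40, *VEGFC* and *PGF* in megakaryocytes -0.38 and -0.24, and *VEGFB* and *FLT1* in monocytes/macrophages -0.017 and -0.054.

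With the block, *VEGFD* in neutrophil-lineage (adjusted p = 0.0627) and *VEGFA* in eosinophil/mast cells (0.0832) lost their call and *PGF* in eosinophil/mast cells gained one (0.0444), and beside the calls given in the report it changed no other. *VEGFD* did not pass the low-count filter without high-UMI cells. A single organoid allowed no test.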
